A study of Mus musculus with 8 samples.

Results

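The STAT transcription factors and the JAK kinases of mouse dendritic cells (DC) were followed across a bacterial stimulus and the loss of one microRNA. The genes were taken as every array probe whose gene name was Stat2, Stat3, Stat4, Stat5a, Stat5b, Stat6, Jak1, Jak2 or Jak3. This gave 9 genes, 6 STAT and 3 JAK, read by 19 of the 41174 distinct probes on the array. All 19 probes passed the filter on dim signal, so all 9 genes were among the 15401 genes tested. Each gene was represented by its probe with the highest mean signal, and the other probes are given beside it.

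Receptors for interferons, many interleukins and some growth factors such as GM-CSF have no kinase of their own. JAK kinases sit on the inner tails of these receptors, are switched on when a ligand joins the chains, and phosphorylate STAT proteins, which pair up, enter the nucleus and bind DNA. Each STAT is tied to its own group of ligands: STAT2 with IRF9 to type I interferon, STAT3 to the IL-6 and IL-10 families, STAT4 to IL-12, STAT5A and STAT5B to GM-CSF and IL-2, and STAT6 to IL-4 and IL-13. The arrays read mRNA and carry no information on phosphorylation.

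The cells came from bone marrow of male C57BL/6Jax mice either of wild type (WT) or lacking miR-155 (knockout, KO). Cells of all groups grew for 7 days in medium with 40 ng/mL GM-CSF, itself a JAK2 and STAT5 activating cytokine. Cells of the LPS groups then received lipopolysaccharide (LPS), a bacterial cell wall component, at 100 ng/mL for 16 h. Unstimulated cells were sorted as CD86-negative DC and LPS cells as CD86-positive DC that had become adherent, so stimulation, adherence and sort gate cannot be told apart. The 4 groups, WT unstimulated, WT LPS, KO unstimulated and KO LPS, had 2 one-colour arrays each. The labels do not say that replicates came from separate animals or cultures, so p-values measure only the spread between these arrays. The deleted microRNA, printed to show what the KO cells lack, has the following mature form, with its seed (bases 2 to 8) in capitals, from RefSeq on GRCm38.p6 (chr16:84714143-84714165, plus strand).
mmu-miR-155-5p: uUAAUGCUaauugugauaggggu
No probe for this microRNA or its host transcript was found by name on the array, so the knockout was not checked against the signal.

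The share of spots well above background was 50.8% to 58.3% per array, with no saturated spot. The arrays lay on 2 slides, and each slide held arrays of 3 of the 4 groups. Both WT unstimulated arrays lay on slide 1 and both KO LPS arrays on slide 2, and the other groups were split between the slides. Slide was thus partly confounded with genotype and with state. Any comparison within a slide had only a single array in one of its groups. All 12 markers of a DC list, among them Itgax, Cd74 and Zbtb46, were well above background on every array. Values below are the scaled log2 signal, the log2 processed signal minus the 75th percentile of the array, in which 0 is the level of that percentile. Differences are on the same log2 scale with a standard error (SE) from the fit, and a call means an adjusted p under 0.05.

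Stat2, Stat4, Stat5a and Jak2 were called higher in LPS than in unstimulated cells in WT, and the same 4 genes in KO. None of the 9 was called lower. The states also differ in adherence and sort gate, so a rise or fall with LPS here means only a difference between these groups. In WT, 20.2% of all genes were called in either direction with 9.48% higher and 10.7% lower. In KO the shares were 20.8% in all, 10.3% higher and 10.5% lower. The median difference of the 9 genes was 1.41 in WT and 1.39 in KO, against 0.00076 and 0.045 over all genes tested. For 6 of the 9 genes in each genotype the LPS and unstimulated arrays did not overlap, which also held for 62% of all genes in WT and 63.7% in KO. The plot of the signal on each array shows the 4 called genes as separate pairs of levels and Jak1 and Stat6 at nearly level heights.

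**Figure D1:**
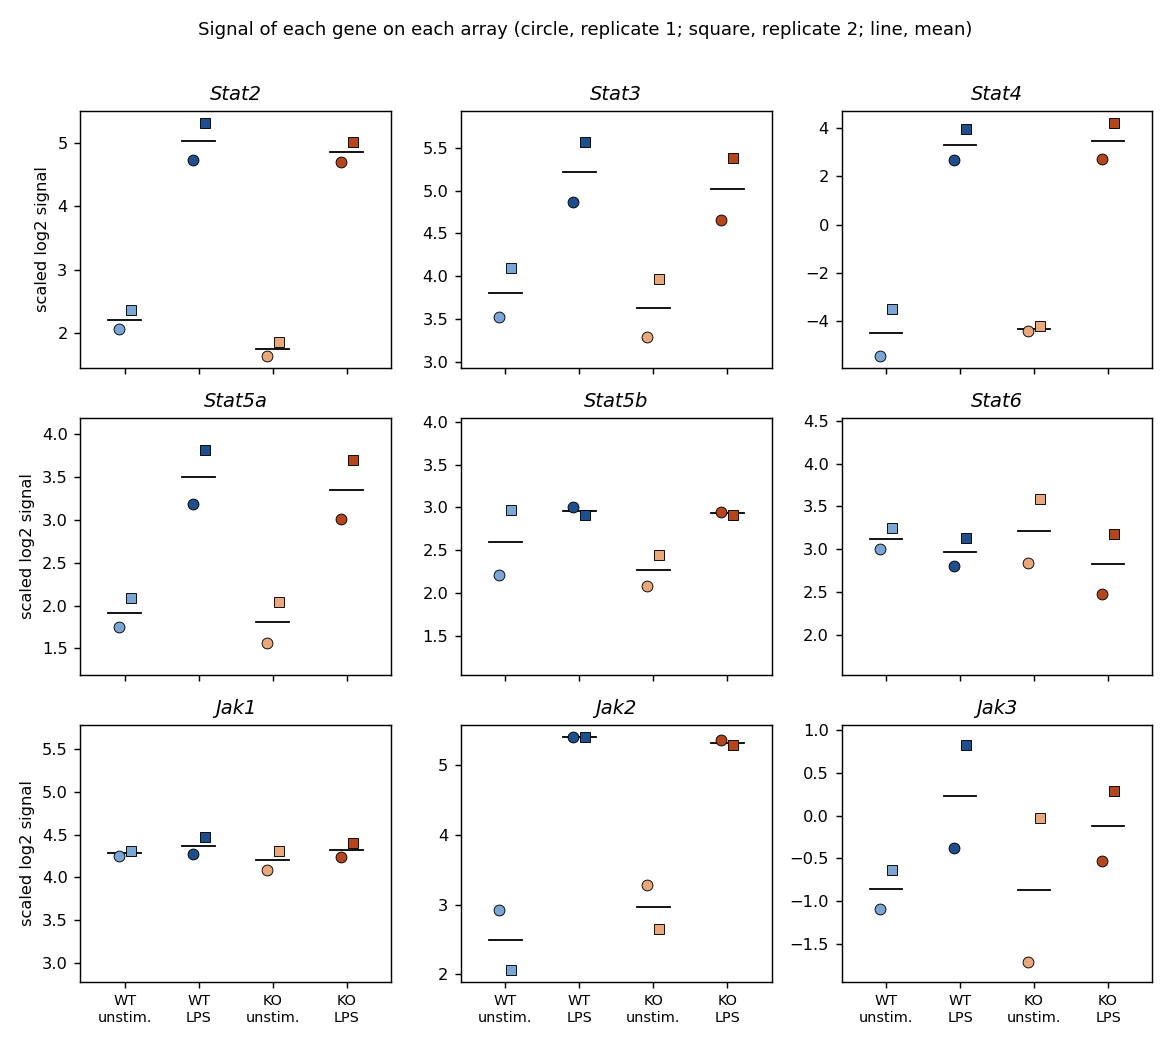
Scaled log2 signal (y axis) of each of the 9 genes on each of the 8 arrays, by group on the x axis, with the mean of each group as a line. Stat4 lies between −5.44 and −3.51 without LPS and between 2.67 and 4.22 with it, and Jak1 stays between 4.09 and 4.48 on all 8 arrays.

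Stat2 encodes the STAT that joins IRF9 in the complex activated by type I interferon. Its signal was 2.06 and 2.36 on the WT unstimulated arrays, 4.73 and 5.33 on the WT LPS arrays, 1.63 and 1.85 on the KO unstimulated arrays and 4.70 and 5.03 on the KO LPS arrays. All LPS arrays lay above all unstimulated arrays in both genotypes. Stat2 rose by 2.82 ± 0.31 in WT (7.07-fold, adjusted p = 0.00181 by limma) and by 3.12 ± 0.31 in KO (8.7-fold, adjusted p = 0.00112). Within the slide that held both states, Stat2 was 3.12 higher in WT (adjusted p = 0.0172) and 3.23 higher in KO (adjusted p = 0.0506), the latter without a call. Its probe lies at chr10:127729181-127729240 on mm9.

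Stat4 encodes the STAT activated by the IL-12 receptor, best known from T cells and NK cells. Its signal was −5.44 and −3.51 in WT unstimulated cells, 2.67 and 3.94 in WT LPS cells, −4.42 and −4.20 in KO unstimulated cells and 2.70 and 4.22 in KO LPS cells. The gap between states exceeded the distance between any arrays of a group. Stat4 rose by 7.78 ± 0.78 in WT (adjusted p = 0.00141) and by 7.77 ± 0.78 in KO (adjusted p = 0.00118), the largest LPS differences among the 9 genes. The unstimulated level was close to background: the processed signal was 15.6 and 41.8 intensity units on the WT arrays, and only 1 of these 2 was well above background. The size of the rise in WT therefore rests on signals near the background, and with normexp background correction it was 5.78 in WT and 5.59 in KO, still called.

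Promoters of these genes were searched in the 250 bases before each RefSeq start site (GRCm38.p6), 12 start sites for the 9 genes. The interferon-stimulated response element, searched as GAAANNGAAA on both strands, was present in 2.98% of 32851 promoters and in those of 2 of the 9 genes, Stat2 and Stat4. The GAS element bound by STAT dimers, searched as TTCNNNGAA, was in 7.02% of all promoters and in 0 of the 12. With a spacer of 4 bases, TTCNNNNGAA, it was in 5.85% of all promoters and in that of Stat2 alone. Jak2, whose LPS difference in WT (2.92) was above that of Stat2 (2.82), had no match of any of these motifs. Both promoters with the response element are printed to show where the matches lie, with the matches in capitals.
Stat2: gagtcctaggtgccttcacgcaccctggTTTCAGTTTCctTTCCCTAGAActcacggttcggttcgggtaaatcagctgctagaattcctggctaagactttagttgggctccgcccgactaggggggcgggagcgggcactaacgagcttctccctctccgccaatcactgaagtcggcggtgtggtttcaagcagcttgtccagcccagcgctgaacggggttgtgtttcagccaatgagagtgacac
Stat4: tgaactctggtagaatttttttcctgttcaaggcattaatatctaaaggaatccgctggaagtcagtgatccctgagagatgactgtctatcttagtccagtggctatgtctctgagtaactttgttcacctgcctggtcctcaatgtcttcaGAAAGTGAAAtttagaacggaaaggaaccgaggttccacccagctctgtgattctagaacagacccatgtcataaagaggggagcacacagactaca
The Stat2 stretch is chr10:128270248-128270497 on the plus strand. Its response element match (TTTCAGTTTC, read on the minus strand) is at −222 to −213 from the start site, and the GAS-like match with the 4-base spacer (TTCCCTAGAA) at −210 to −201. The Stat4 stretch is chr1:52007990-52008239 on the plus strand, before the second of 2 listed start sites, with the match GAAAGTGAAA at −97 to −88. No match was found before the other Stat4 start site. These matches describe the letters only, and binding was not measured.

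Stat3 encodes the STAT downstream of IL-6 and IL-10. Its signal was 3.52 and 4.09 in WT unstimulated cells, 4.86 and 5.57 in WT LPS cells, 3.29 and 3.97 in KO unstimulated cells and 4.66 and 5.38 in KO LPS cells. LPS and unstimulated arrays did not overlap in either genotype, but the arrays of each group lay 0.575 to 0.719 apart. Replicate 2 was the higher in all 4 groups. The difference was 1.41 ± 0.43 in WT (adjusted p = 0.0598) and 1.39 ± 0.43 in KO (adjusted p = 0.0621), and neither was called. The Stat3 probe was spotted 10 times on the array, and the SD between its spots within an array was 0.018 to 0.13, below the distance between arrays of a group.

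The call on Stat3 changed with how the arrays were combined. With LPS compared over both genotypes, 4 arrays against 4, its difference was 1.40 ± 0.30 (adjusted p = 0.0112), where 37.4% of all genes were called. This comparison was added after the data were seen. With the slide as a block Stat3 was also called, at 1.75 in WT (adjusted p = 0.0393) and 1.74 in KO (adjusted p = 0.0385). A dimmer second Stat3 probe, not well above background on either WT unstimulated array, was at least 2.16-fold higher after LPS in WT (adjusted p = 0.101 over all probes).

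Stat5a encodes one of the STATs that carry the GM-CSF signal. Its signal was 1.75 and 2.09 in WT unstimulated cells, 3.19 and 3.82 in WT LPS cells, 1.57 and 2.04 in KO unstimulated cells and 3.01 and 3.69 in KO LPS cells. No LPS array overlapped an unstimulated one. Stat5a rose by 1.58 ± 0.37 in WT (3-fold, adjusted p = 0.0273) and by 1.55 ± 0.37 in KO (2.92-fold, adjusted p = 0.0286). The call was lost in WT whichever of the 4 WT arrays was left out (differences of 1.27 to 1.90, adjusted p of 0.0522 to 0.138), and in KO without either KO unstimulated array (1.31 and 1.78) or without KO LPS replicate 2 (1.2, adjusted p = 0.154). It was also lost in both genotypes when only the compared groups were fitted (adjusted p = 0.0503 and 0.0549), and with normexp background correction (0.70 in KO, adjusted p = 0.37).

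Stat5b encodes the close relative of STAT5A, and its probes disagreed. The brightest probe read 2.21 and 2.98 in WT unstimulated cells, 3.0 and 2.91 in WT LPS cells, 2.09 and 2.45 in KO unstimulated cells and 2.95 and 2.91 in KO LPS cells. The WT states overlapped. Its difference was 0.37 ± 0.32 in WT (adjusted p = 0.471) and 0.66 ± 0.32 in KO (adjusted p = 0.201), without a call. A second, dimmer probe lay 6496 bases upstream in the gene, at chr11:100648654-100649702 on the minus strand of mm9. Its 60 bases cover 1049 bases of the genome, so it crosses a splice junction, and 1 of its 3 reading frames has no stop. It is printed because it alone gave a call for Stat5b.
Stat5b second probe: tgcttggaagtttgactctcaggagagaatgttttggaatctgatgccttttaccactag
It read −3.04 and −2.60 in WT unstimulated cells, −0.82 and −0.70 in WT LPS cells, −3.37 and −2.36 in KO unstimulated cells and −0.83 and −0.72 in KO LPS cells. By this probe Stat5b rose by 2.07 ± 0.38 in WT (adjusted p = 0.0113 over all 23738 probes) and by 2.09 ± 0.38 in KO (adjusted p = 0.0102). The remaining Stat5b probe was well above background on 5 of 8 arrays and was not called in either genotype.

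Stat6 encodes the STAT of IL-4 and IL-13 signalling. Its signal was 3.0 and 3.25 in WT unstimulated cells, 2.81 and 3.13 in WT LPS cells, 2.84 and 3.59 in KO unstimulated cells and 2.48 and 3.17 in KO LPS cells. The states overlapped in both genotypes. The difference was −0.15 ± 0.38 in WT (95% interval −1.04 to 0.73) and −0.39 ± 0.38 in KO (−1.28 to 0.50). Neither of its other 2 probes was called in any comparison of LPS with unstimulated cells.

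Of the kinases, Jak2 rose and Jak1 and Jak3 were not called. JAK2 serves the receptors for GM-CSF, IL-12 and interferon gamma. Jak2 read 2.93 and 2.06 in WT unstimulated cells, 5.41 and 5.41 in WT LPS cells, 3.28 and 2.65 in KO unstimulated cells and 5.36 and 5.29 in KO LPS cells. The unstimulated arrays of a group lay further apart than the LPS arrays, and no LPS array overlapped an unstimulated one. Jak2 rose by 2.92 ± 0.37 in WT (7.54-fold, adjusted p = 0.00301) and by 2.36 ± 0.37 in KO (5.14-fold, adjusted p = 0.00609). In KO the call was lost with normexp (1.44, adjusted p = 0.156) and within slide 2 (2.05, adjusted p = 0.0657), and in WT it held with normexp (2.67, adjusted p = 0.0287) and within slide 1 (2.92, adjusted p = 0.0326). A second Jak2 probe, 23091 bases upstream at chr19:29363211-29363270 and printed here because it gives the rise a second sequence, rose by 3.40 ± 0.44 in WT (adjusted p = 0.0032) and by 2.72 ± 0.44 in KO (adjusted p = 0.00691).
Jak2 second probe: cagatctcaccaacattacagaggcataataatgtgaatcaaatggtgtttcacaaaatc

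JAK1 serves interferon, gp130 and gamma-chain receptors alike. Jak1 read 4.25 and 4.31 in WT unstimulated cells, 4.27 and 4.48 in WT LPS cells, 4.09 and 4.31 in KO unstimulated cells and 4.24 and 4.41 in KO LPS cells. The difference was 0.093 ± 0.25 in WT (95% interval −0.49 to 0.68) and 0.12 ± 0.25 in KO (−0.46 to 0.71), intervals that leave out a rise of the size of Jak2. A second bright Jak1 probe gave 0.046 ± 0.24 and 0.30 ± 0.24. The remaining probe named Jak1 lies on the opposite strand to the other 2 and was not well above background on either WT unstimulated array.

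JAK3 works only with the gamma chain shared by receptors such as those for IL-2 and IL-15. Its brightest probe read −1.09 and −0.63 in WT unstimulated cells, −0.38 and 0.83 in WT LPS cells, −1.71 and −0.023 in KO unstimulated cells and −0.53 and 0.28 in KO LPS cells. The states did not overlap in WT and overlapped in KO. The difference was 1.09 ± 0.65 in WT (adjusted p = 0.289) and 0.74 ± 0.65 in KO (adjusted p = 0.476). The other 2 Jak3 probes gave 1.71 ± 0.56 and 1.59 ± 0.60 in WT, and 1.42 ± 0.56 and 1.19 ± 0.60 in KO, none of them called. Over both genotypes these 2 probes were called, at 1.57 ± 0.40 (adjusted p = 0.0208) and 1.39 ± 0.42 (adjusted p = 0.0394), and the brightest was not (0.91, adjusted p = 0.162). With the slide as a block the brightest probe was called in WT (1.81, adjusted p = 0.0413). The brightest probe, across a splice junction, and the weaker of the other 2 lie at chr8:74210826-74211151 and chr8:74214085-74214144 on mm9, and are printed to show which stretches of Jak3 were read.
Jak3 brightest probe: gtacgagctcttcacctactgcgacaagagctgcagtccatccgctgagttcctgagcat
Jak3 other probe: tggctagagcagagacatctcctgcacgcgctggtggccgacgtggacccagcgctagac

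**Figure D2:**
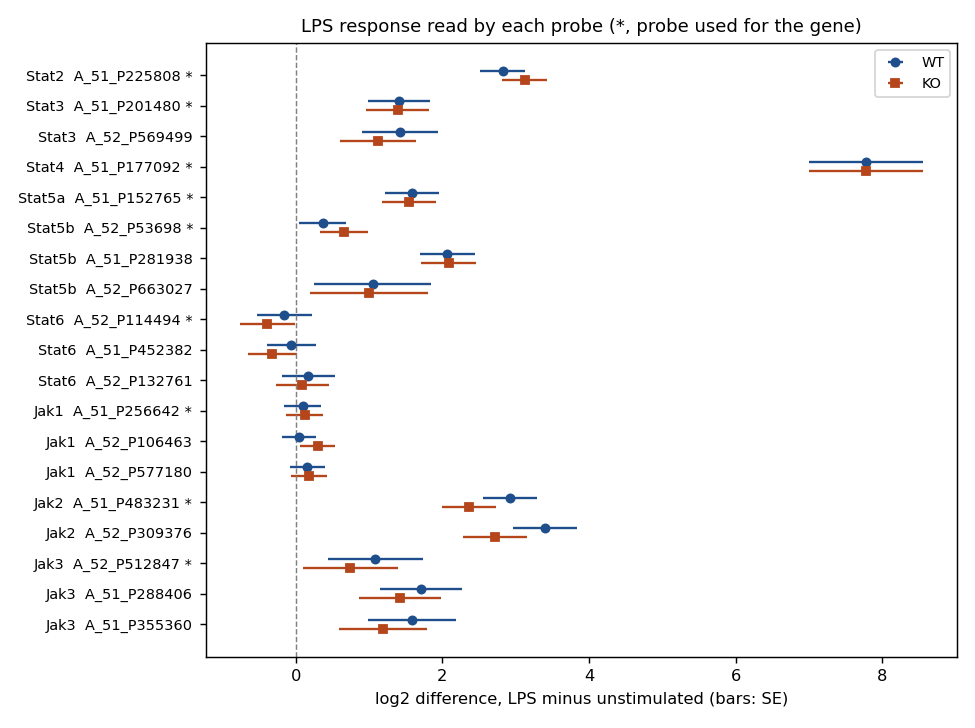
LPS difference (x axis, log2, with SE bars) read by each of the 19 probes (y axis, with the probe used for the gene starred) in WT and KO. The 3 Stat5b probes spread from 0.37 to 2.07 in WT, while the 2 Jak2 probes lie between 2.36 and 3.40 in both genotypes.

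Whether 2 probes of a gene gave the same LPS difference was tested on the difference between their signals on each array, LPS against unstimulated, with a two-sided exact permutation test over 8 arrays. There were 10 such pairs, and the smallest p this design allows is 0.0286. The second Stat5b probe exceeded the first by 1.56 (exact permutation p = 0.0286, adjusted over the 10 pairs p = 0.0715). The 2 other Jak3 probes exceeded the brightest by 0.65 and 0.47, and 1 Stat6 probe exceeded its brightest by 0.40, all with the same p. No pair passed after adjustment. With this smallest p and 10 pairs, a pair alone could not pass however large its difference. The lack of a passing pair therefore does not show that the probes agreed. The 2 Jak2 probes differed by 0.42 (exact permutation p = 0.0857), and the 2 bright Jak1 probes by 0.065. The cause of these differences was not tested.

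Between genotypes, 0 of the 9 genes were called by limma in unstimulated cells, after LPS, or with both states averaged. None of the 9 had an unadjusted p under 0.05 in these comparisons. Over all genes, 0.24% were called in unstimulated cells (0.0195% higher and 0.221% lower in KO), 0.026% after LPS, all lower, and 0.143% in the average. In unstimulated cells Stat2 differed by −0.47 ± 0.31 KO minus WT (95% interval −1.2 to 0.26), and its KO arrays lay below both WT arrays. That was 1 of 9 genes without overlap, against 20.9% of all genes. Jak2 differed by 0.47 ± 0.37 there (−0.40 to 1.34), by 0.74 ± 0.44 with its second probe, and by 0.033 to 0.90 with 1 array left out. After LPS the differences of the 9 genes ran from −0.35 for Jak3 (−1.9 to 1.2) to 0.16 for Stat4 (−1.70 to 2.02). Jak1 had the narrowest interval, −0.64 to 0.53, and Stat4 the widest, so a change of the size seen with LPS in Stat3 or Stat5a was outside the interval for Jak1 and inside it for Stat4.

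**Figure D3:**
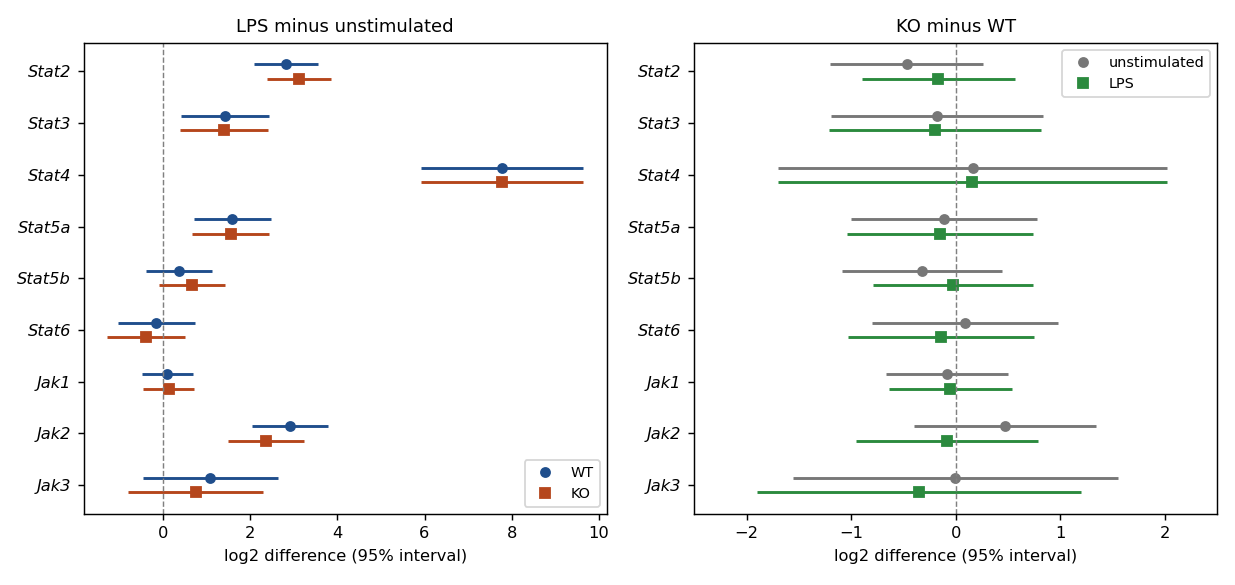
Log2 differences (x axis) of the 9 genes (y axis) with 95% intervals, for LPS minus unstimulated in WT and KO on the left and for KO minus WT in each state on the right. Intervals of Stat2, Stat4, Stat5a, Jak2 and the uncalled Stat3 lie above 0 on the left, and all intervals on the right include 0.

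Whether the LPS response itself differed between genotypes was asked with the difference of the responses, KO minus WT. Of all genes, 0.0455% were called in it (0.039% higher and 0.00649% lower), and 0 of the 9. The response of Jak2 was smaller in KO by an estimate of −0.55 ± 0.52 (95% interval −1.79 to 0.68), and that of Stat2 larger by 0.30 ± 0.44 (−0.73 to 1.33). With 1 array left out these estimates ran from −0.99 to −0.12 for Jak2 and from 0.0032 to 0.60 for Stat2. The response of Stat4 differed by −0.0044 ± 1.11, an interval of −2.64 to 2.63. These responses share no arrays, and each comparison rests on 2 arrays per group.

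Other genes of the pathway were counted by role, as shown in the plot of calls per list. For comparison, 20.2% of all genes were called with LPS in WT, 9.48% higher and 10.7% lower. In KO the share was 20.8%, with 10.3% higher and 10.5% lower. Of 29 tested receptor chains, 5 rose and 3 fell with LPS in WT and 6 rose and 3 fell in KO, with medians of 0.53 and 0.42 (0.50 and 0.38 with dim members at their bound). Il12rb1, a chain of the receptor that acts through STAT4, was named for that role after its values were seen. It was at least 5.63-fold higher in WT (adjusted p = 0.00904) and at least 4.73-fold higher in KO (adjusted p = 0.0137), not well above background on any unstimulated array. The other chain of that receptor, Il12rb2, was not called (0.29 ± 0.79 and −0.81 ± 0.79), nor was Csf2rb, the signalling chain for GM-CSF (0.32 ± 0.37 and 0.19 ± 0.37). By size, the leading rises were Il23r, at least 14.6-fold in WT and 24.2-fold in KO, Il2ra in WT (4.07 ± 0.47) and Il15ra in KO (3.45 ± 0.51). Lifr fell at least 4.78-fold and 7.81-fold, and Il27ra fell by 2.45 ± 0.38 in WT and fell by 2.77 ± 0.38 in KO.

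Of 16 tested ligands of JAK-coupled receptors, 9 rose and 1 fell in each genotype. Their median was 2.34 in WT and 3.09 in KO, or 1.93 and 2.25 with dim members at their bound. Il6, which acts through STAT3, and Il12b, which encodes the p40 chain of IL-12, led the list in both genotypes. Il12b was at least 2480-fold higher in WT and 4730-fold higher in KO. Il2 was the ligand that fell, at least 1.8-fold in WT and 2.41-fold in KO, near background.

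Of 8 partners and adaptors, 1 rose in WT and 2 in KO, with medians of 0.22 and 0.32. Nmi, which binds STAT proteins, rose by 2.16 ± 0.28 and by 2.30 ± 0.28. Irf9, the DNA-binding partner of STAT2, rose by 1.63 ± 0.41 in KO (adjusted p = 0.0318) and had a difference of 1.17 ± 0.41 in WT (adjusted p = 0.0894). Of 20 inhibitors, 3 rose in each genotype, and 2 fell in WT and 3 in KO, with medians of 0.28 and 0.17. Usp18, which blocks the interferon receptor, rose by 5.02 ± 0.35 and by 6.04 ± 0.35, and Socs1, which binds JAK kinases, by 3.99 ± 0.68 and by 3.87 ± 0.68. Socs6 fell by 2.39 ± 0.34 in WT and fell by 2.34 ± 0.34 in KO. Pdlim2, which promotes STAT4 breakdown, fell by 1.85 ± 0.37 in WT and fell by 2.38 ± 0.37 in KO.

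Of 20 interferon targets of the STAT2 complex, all 20 rose in WT and all 20 in KO, with medians of 5.20 and 6.75. Oasl1 rose by 9.54 ± 0.35 in WT and by 11.02 ± 0.35 in KO, Ifi44 at least 407-fold in WT, and Rsad2 by 10.31 ± 0.33 in KO. In unstimulated cells 2 of the 20 were lower in KO, Xaf1 by −3.40 ± 0.27 (adjusted p = 0.00983) and Rtp4 by −2.52 ± 0.28 (adjusted p = 0.0277), and the median of the list was −1.34 against −0.040 for all genes. No gene at all was called in this comparison without either KO unstimulated array, with normexp, within slide 1 or with only the compared groups fitted, so both calls were lost there. Stat2 itself was −0.47 and not called. After LPS 0 of the 20 were called between genotypes, with a median of −0.15, and 0.026% of all genes were called there. The lack of a call does not show that Xaf1 no longer differed after LPS. With both states averaged, 1 of the 20 was called by limma, Xaf1, at −3.11 ± 0.19 KO minus WT (adjusted p = 0.0149). No gene was called in that average with normexp, with the slide as a block or without either KO unstimulated array.

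Targets of the other STATs gave mixed directions. Of 16 STAT3 targets, 4 rose and 3 fell in WT and 6 rose and 2 fell in KO, with medians of 0.52 and 0.42. They were led by Lcn2 (at least 1530-fold and 2490-fold) and Saa3 (7.06 ± 0.52 and 8.54 ± 0.52), while Birc5 fell by 4.52 ± 0.59 in WT and fell by 4.6 ± 0.59 in KO. Of 8 STAT4 targets, 2 rose and 2 fell in each genotype, with medians of −0.35 and −0.75. Gadd45b rose by 4.91 ± 0.61 and by 5.77 ± 0.61, and the IL-18 receptor chains Il18rap and Il18r1 fell at least 5.28-fold and 11.2-fold in WT and 9.21-fold and 18.2-fold in KO. Of 15 STAT5 targets, 3 rose in WT, led by Ccnd2 (5.51 ± 1.32) and Il2ra, and 2 rose in KO, Il2ra and Osm (1.32 ± 0.37), with medians of 0.56 and 0.14. Of 18 STAT6 targets, 2 rose and 8 fell in each genotype, the largest share of falls among the target lists, with medians of −1.22 and −0.38. Ccl22 rose by 7.02 ± 0.31 and by 7.14 ± 0.31, and the lectin Clec10a fell by 6.74 ± 0.92 in WT and fell by 6.25 ± 0.92 in KO. The lectin Mrc1 fell by 5.73 ± 0.51 in WT and fell by 5.68 ± 0.51 in KO. Beside these falls, 5 of 10 macrophage markers fell in each genotype, and their part was not tested. Many of these targets answer to other factors too, and the lists do not measure STAT activity.

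**Figure D4:**
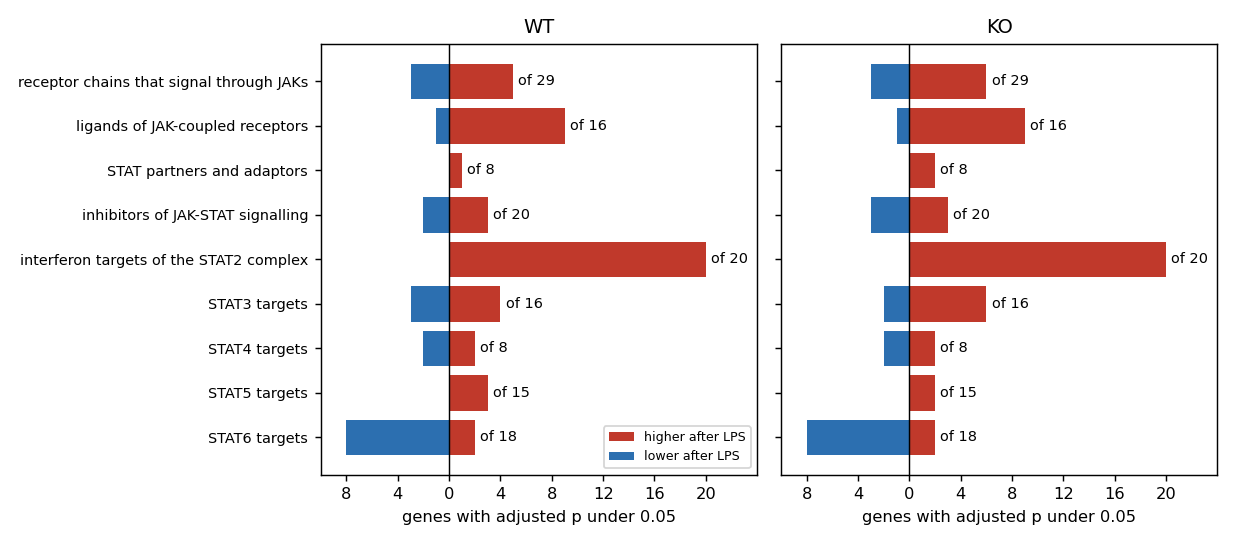
Number of genes per list (x axis) that were higher (right of 0) or lower (left of 0) after LPS at an adjusted p under 0.05, in WT and KO, with the number tested beside each bar. All 20 interferon targets of the STAT2 complex were higher in both genotypes, and 8 of 18 STAT6 targets were lower.

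The genes whose signal followed each member most closely over the 8 arrays were Zfp811 and Lox for Stat2 (Pearson r = 0.999 for both) and Adcy6 and Il12b for Stat4 (0.999 and 0.997). They were Ap3m2 and Tspan13 for Stat3 (0.996 and 0.995), Hspa1b and Tapbpl for Stat5a (both 0.997), and Arap2 and Cbwd1 for Jak2 (0.997 and 0.993). For the genes without a call they were Maml2 and Junb for Stat5b (0.996 and 0.993), Hlcs and Capzb for Stat6 (0.971 and 0.961), Zfpl1 and Lysmd4 for Jak1 (0.989 and 0.985) and Map3k5 and AI837181 for Jak3 (0.981 and 0.979). The arrays share 2 states, so any gene with a large LPS difference correlates with any other: 827 of 15344 candidate genes had r over 0.95 with Stat2 and 799 with Stat4, against 3 with Stat6.

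Markers of other cell types were read beside these results, since fewer cells of a type and less RNA per cell cannot be told apart in bulk RNA. Sums are of the linear signal relative to the 75th percentile of the array. The 12 T cell markers summed to 0.498 to 0.774 in WT unstimulated, 1.49 to 4.27 in WT LPS, 0.451 to 0.714 in KO unstimulated and 2.1 to 6.12 in KO LPS cells. On each array 4 to 6 of these 12 markers were well above background, and 7 were tested. Cd3d, Cd3g and Cd4 were not well above background on any array, Cd247 and Lck rose, and Cd2 and Lat fell. The 9 NK cell markers summed to 0.406 to 0.773 in WT unstimulated and 0.13 to 0.278 in WT LPS cells, with Eomes, Gzma, Gzmb, Prf1 and Nkg7 not well above background on any array. They summed to 0.415 to 0.51 in KO unstimulated and 0.0833 to 0.216 in KO LPS cells. Beside the rise of Stat4, the T cell sum was thus higher and the NK cell sum lower after LPS.

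The 8 B cell markers summed to 1.02 to 5.17 and 0.854 to 4.92 in the unstimulated groups and 0.192 to 0.346 in the LPS groups. The 8 stromal markers summed to 0.161 to 0.286 without LPS and 2.21 to 12.6 with it, led by Dcn, and the 10 markers of mast cells and basophils to 1.05 to 3.67 without and 6.16 to 115 with LPS, led by Hdc. Of the 8 mast cell and basophil markers tested, 2 rose and 4 fell in each genotype. Mcpt8 and Prss34 fell at least 7.92-fold and 19.8-fold in WT. Over all genes, 9.48% rose and 10.7% fell in WT, and 10.3% rose and 10.5% fell in KO. The sums of the 10 macrophage markers (180 to 375) and 9 neutrophil markers (5.26 to 11.3) overlapped between states. Single macrophage markers did move: 5 of 10 fell and 1 rose in each genotype, with medians of −1.75 in WT and −1.61 in KO, and Cd163 fell at least 8.44-fold in WT and 9.68-fold in KO. Single neutrophil markers moved too: of 6 tested, 1 rose in each genotype and 1 fell in KO. Camp rose in WT (adjusted p = 0.000261 by limma) and at least 19.8-fold in KO (adjusted p = 0.000118). Ltf fell at least 3.5-fold in KO (adjusted p = 0.0408) and was not called in WT. The part of other cell types in the LPS differences of the STAT and JAK genes was not tested.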

How the data were processed

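RNA of sorted DC was labelled with Cy3 and hybridised to Agilent arrays with 60-base probes. The authors used Agilent Feature Extraction 10.5.1.1 and the mm9 build, per the file headers. The deposited intensity values are a background-subtracted processed signal, a mean signal and a local background for each spot. The deposited spot flags, an other unit of 0 or 1, tell which spots stood clear of background, were saturated or were outliers. The values of the deposited series table are log2 and matched the log2 of the processed signal up to 1 constant per array.

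Outlying spots (120 to 174 per array) were left out, each array was scaled by subtracting the 75th percentile of its log2 processed signal, and spots of a probe were averaged. A probe was kept if, in 1 group or more, both arrays read it well above background (23738), and the probe with the highest mean stood for a gene. A mean per group was fitted over all 8 arrays with limma 3.58.1 in R 4.3.3 (residual degrees of freedom 4, prior 2.88), with two-sided p adjusted by Benjamini-Hochberg over all genes. The fit was tested on simulated data. The arrays' number, 2 per group, limits the precision.

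For a gene not well above background in a group, the fold is a lower bound from the higher of its own signal and the lowest signal well above background on each array. Named genes were the 9 genes, up to 2 largest called rises and falls of each list, and the 2 genes with the highest correlation to each member. The members and lists were chosen with earlier results of these data known. The alternatives were the background correction (normexp, offset 50), scaling, filter, probe rule, deposited table, slide, replicate number, variance model, groups in the fit and single arrays left out. Promoter and microRNA sequences are from RefSeq, and probe sequences from the scanner files. Of the 9 genes, all 9 matched the promoter table.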

Additional observations from a re-analysis of the deposited data

How the results depend on the processing

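The rises of Stat2, Stat4 and Jak2 in WT were called under every alternative that gave a value, with differences of 2.52 to 3.12, 5.78 to 8.75 and 2.48 to 3.35. Stat4 drops out of the set of probes well above background on all arrays. In KO, Stat4 was called under every alternative that gave a value, Stat2 not within slide 2 (3.23, adjusted p = 0.0506) and Jak2 neither within slide 2 (2.05, adjusted p = 0.0657) nor with normexp (1.44, adjusted p = 0.156). Under normexp the members called higher were 3 in WT and 2 in KO, and within slide 2 there was 1 in KO. Stat3 was also called with an intensity trend in the prior variance (adjusted p = 0.042 in WT and 0.0431 in KO). Stat5a in KO was lost with array median scaling (adjusted p = 0.0503). The cause was not tested. No member was called between genotypes in any of 716 estimates, in which 105 signs differed from the main value. Each estimate is for a single gene in a single comparison under one alternative, and all come from refits of the same arrays.

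Values without a call changed sign as follows. Jak1 in KO was −0.62 with normexp, −0.058 with quantile normalization and −0.059 with array median scaling, and in WT −0.017 with the last. Stat6 in WT was 0.11 with the slide as a block and 0.0066 within slide 1. The difference of responses of Stat2 was −0.53 with normexp. With one array left out, Stat5b in WT ran from −0.019 to 0.75, Stat6 in WT from −0.32 to 0.0066, Jak1 in WT from −0.010 to 0.20, and Jak3 in KO from −0.10 to 1.59.

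Counts of all genes called moved by over 1.5 times as follows, from 3105 in WT LPS, 3201 in KO LPS, 37 in KO against WT unstimulated, 4 after LPS, 22 averaged and 7 for the difference of responses. With normexp they were 679, 929, 0, 0, 0 and 0. Quantile normalization gave 14 for the difference and array median scaling 7 after LPS. Without the filter there were 56 unstimulated, 2 after LPS and 0 for the difference, and with probes well above background on all arrays 1, 1, 3 averaged and 0. The slide as a block gave 5, 0, 0 and 0 for the comparisons between genotypes. Within slide 1 there were 1533 in WT LPS and 0 unstimulated, and within slide 2 445 in KO LPS and 0 after LPS. The intensity trend gave 13 unstimulated, 9 averaged and 0 for the difference, and fits of only the compared groups 0 and 0. Averaged over both genotypes, 5758 genes were called for LPS. With one array left out the ranges were 1441 to 2865, 1423 to 3107, 0 to 26, 0 to 0, 0 to 8 and 0 to 10, and members called higher 3 to 4 in each genotype.

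With the replicate number as a block, 5 members were higher in each genotype, Stat3 being added (adjusted p = 0.00645 in WT and 0.00632 in KO), and the genes called were 2 after LPS and 0 for the difference of responses. Replicate deviations correlated at 0.12 between the WT states, 0.21 between the KO states, 0.48 between the unstimulated genotypes and 0.68 between the LPS genotypes. The other group pairs gave 0.34 and 0.0039. The labels do not say what a number shares and there are only 2 numbers, so they were not taken as pairs.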
